A study of Mus musculus with 18 samples.

Results

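The integrated stress response and amino acid supply were followed through 10 genes: the transcription factor Atf4, its target factor Ddit3 (CHOP), the pseudokinase gene Trib3, the glutathione-degrading enzyme gene Chac1, the phosphatase subunit gene Ppp1r15a (GADD34), the amino acid and one-carbon enzyme genes Asns, Psat1, Phgdh and Shmt2, and the cystine transporter gene Slc7a11. They were taken by name, with earlier results of these data known, and are 10 of the 13787 genes in any of the 3 tables. All 10 were in the p53null 10 h table (12861 genes) and in the p53WT 72 h table (12838 genes). In the p53WT 10 h table (12679 genes) 9 were present and Trib3 was missing. Their Ensembl gene IDs are ENSMUSG00000042406 (Atf4), ENSMUSG00000025408 (Ddit3), ENSMUSG00000032715 (Trib3), ENSMUSG00000027313 (Chac1), ENSMUSG00000040435 (Ppp1r15a), ENSMUSG00000029752 (Asns), ENSMUSG00000024640 (Psat1), ENSMUSG00000053398 (Phgdh), ENSMUSG00000025403 (Shmt2) and ENSMUSG00000027737 (Slc7a11).

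The cells were mouse acute myeloid leukemia (AML) driven by MLL/ENL and Nras, grown in syngeneic C57BL/6 mice and sorted from bone marrow as GFP-positive cells. Every group carries MLL/ENL and Nras. The 18 samples form 6 groups of 3: p53 wild-type (p53WT) AML given vehicle or CX-5461, which blocks RNA polymerase I, for 10 h, p53null AML given either for 10 h, and p53WT AML given either for 72 h. Counts per library exist here for p53WT AML at 10 h, with 21578685 to 48118513 counts a library. For the other comparisons the authors' fold changes, mean levels and false discovery rates (FDR) were read. The labels do not give the animals' age, the number of animals or clones behind a group, or the construct that carries GFP, and they call the replicates separate samples without saying that they came from separate mice. The p-values therefore measure the spread between these samples. Titles of p53WT and p53null samples at 10 h carry different tags of unstated meaning, so that genotype and leukemia of origin cannot be told apart. The 72 h titles carry neither tag, so time and leukemia of origin cannot be told apart either.

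The sorted cells carried myeloid leukemia markers: all 11 of the list, among them Ptprc, Mpo, Elane and Hoxa9, were measured in all 3 tables. Red cell genes were measured too. In p53WT AML at 10 h the summed level of 15 measured erythroid genes was 5777, 19808 and 639 CPM (counts scaled to library size) in vehicle libraries 1, 2 and 3, against 247 to 452 CPM with CX-5461. The summed level of 12 neutrophil genes was 7022 to 19021 CPM in vehicle and 2837 to 3967 CPM with CX-5461, and that of 9 macrophage genes 438 to 739 CPM and 410 to 462 CPM. By gene, the authors' deposited table had 6 of 9 macrophage markers lower and 0 higher at an FDR under 0.05, with 6.83% of its genes lower. Lower there too were 2 of 3 B and plasma cell, 1 of 2 megakaryocyte and 1 of 3 stroma markers. The single T and NK cell marker measured was also lower. The vehicle libraries differed from each other in these marker sums. What the sums stem from was not tested, and in sorted bulk samples fewer cells of a type and less RNA per cell cannot be told apart.

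Cells slow general protein synthesis under amino acid shortage, unfolded protein, heme shortage or viral RNA, when 1 of several kinases phosphorylates the initiation factor eIF2alpha. Translation of the Atf4 mRNA then increases, so that ATF4 protein can change without its mRNA. ATF4 pairs with C/EBP and other bZIP proteins at CARE elements (C/EBP-ATF response elements) and turns on genes for amino acid synthesis and uptake, Trib3 and Chac1, while GADD34 brings a phosphatase to eIF2alpha and closes the loop.

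The core letters of a CARE, TGATGNAA on either strand, were looked for in RefSeq promoter windows of 300 bases (build GRCm38.p6). Of 32851 windows, 3.97% held a match, and by gene 1219 of 27025, or 4.51%. All 10 members had a window, and 4 of them held a match: Slc7a11, Chac1, Trib3 and Asns. The core was found in windows of 3 of 8 listed bZIP genes, 3 of 14 amino acid and one-carbon enzyme genes, 1 of 8 amino acid transporter genes, 3 of 10 other ATF4 target genes and 0 of 10 eIF2alpha kinase and regulator genes. The 4 member windows are shown because they hold these core letters, a match that is no evidence of binding, each 5′ to 3′ along the gene with the match in capitals.
Slc7a11, chr3:50443564-50443863, minus strand: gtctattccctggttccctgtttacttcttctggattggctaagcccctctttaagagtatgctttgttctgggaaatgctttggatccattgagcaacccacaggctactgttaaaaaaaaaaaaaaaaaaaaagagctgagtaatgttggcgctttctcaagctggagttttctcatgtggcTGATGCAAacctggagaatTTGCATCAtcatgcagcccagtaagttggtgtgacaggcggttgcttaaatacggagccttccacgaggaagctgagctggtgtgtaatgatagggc
Chac1, chr2:119350992-119351291, plus strand: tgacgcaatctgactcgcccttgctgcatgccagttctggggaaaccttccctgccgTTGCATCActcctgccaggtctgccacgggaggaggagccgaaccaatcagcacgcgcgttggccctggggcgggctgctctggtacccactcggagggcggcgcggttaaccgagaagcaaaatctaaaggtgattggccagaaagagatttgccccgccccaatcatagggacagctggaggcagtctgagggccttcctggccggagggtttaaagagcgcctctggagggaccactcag
Trib3, chr2:152344011-152344310, minus strand: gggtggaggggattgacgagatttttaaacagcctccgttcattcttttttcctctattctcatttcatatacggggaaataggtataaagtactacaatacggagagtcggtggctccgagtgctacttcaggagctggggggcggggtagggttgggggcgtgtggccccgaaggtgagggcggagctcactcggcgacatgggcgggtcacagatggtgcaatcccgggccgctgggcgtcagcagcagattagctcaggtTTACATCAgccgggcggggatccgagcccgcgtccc
Asns, chr6:7693160-7693459, minus strand: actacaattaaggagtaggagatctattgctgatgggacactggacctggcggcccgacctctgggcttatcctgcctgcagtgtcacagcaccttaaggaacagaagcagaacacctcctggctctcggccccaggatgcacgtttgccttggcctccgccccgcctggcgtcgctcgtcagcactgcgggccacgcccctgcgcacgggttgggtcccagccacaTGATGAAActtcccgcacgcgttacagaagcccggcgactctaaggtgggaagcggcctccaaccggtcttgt

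Slc7a11 held 2 matches that face each other, starting at -66 and -47 from the RefSeq start site, both reading TGATGCAA on their own strand. The match of Chac1, TGATGCAA on the opposite strand, started at -193, that of Asns, TGATGAAA, at -23, and that of Trib3, TGATGTAA on the opposite strand, at 14 bases after the start. No match in the other windows says only that these letters are not there.

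Most members stood at a higher level in the p53null table than in either p53WT table. The mean levels below are the authors' mean CPM over the CX-5461 and vehicle libraries of a table. The tables were normalized separately, no counts of p53null AML were at hand and the difference was not tested, so these are levels set side by side. The comparison of levels was added after the data were seen. Between the p53null and the p53WT 10 h tables, the median difference over 11879 shared genes was -0.07 on the log2 scale.

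**Figure D1:**
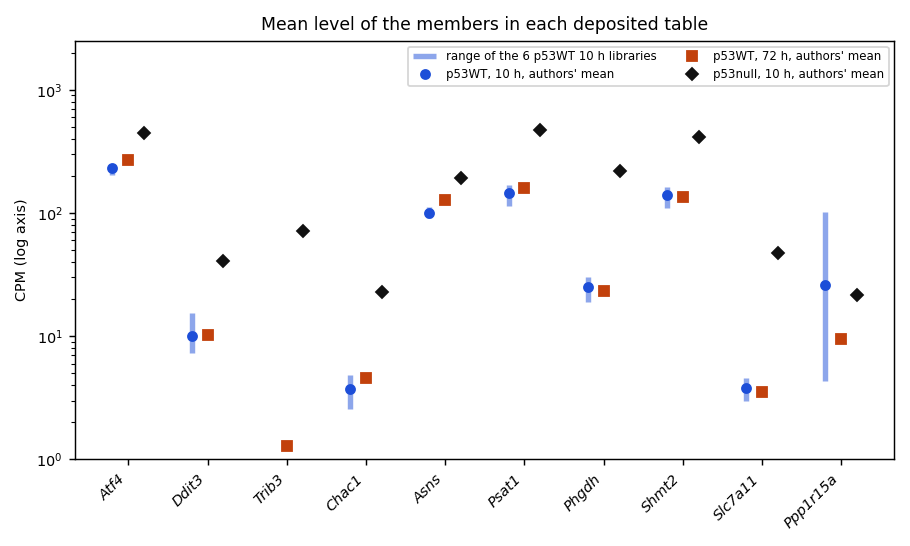
Mean level of each member in the authors' deposited tables, in CPM on a log axis (circles, p53WT at 10 h; squares, p53WT at 72 h; diamonds, p53null at 10 h), with bars for the range of the 6 p53WT 10 h libraries. The diamonds lie above the bars for 8 of 9 members, Ppp1r15a being the other, and Trib3 has no p53WT 10 h value.

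Trib3, which encodes an inhibitor of AKT and of ATF4 itself, had the widest gap. Its mean in the authors' deposited tables was 70.9 CPM in p53null AML and 1.28 CPM in p53WT AML at 72 h, a ratio of 55.1, and only 1 of 12147 shared genes had a wider one. Slc7a11, the exchanger that imports cystine for glutathione, had 3.69, 4.60 and 3.49 CPM without and 3.85, 2.98 and 3.79 CPM with CX-5461 in the p53WT 10 h libraries. In the authors' deposited tables its mean was 47.7 CPM in p53null AML and 3.79 CPM in p53WT AML at 10 h, a ratio of 12.6, and 67 of 11879 shared genes had a wider one. None of the 6 p53WT libraries came near the p53null mean, the highest being lower by a factor of 10.2. Slc7a11 in its longest annotated transcript holds a stretch of 373 bases that is 95% to 97% identical to the alpha-tubulin genes, so reads there could be shared.

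Among the enzymes, the serine and glycine synthesis genes were read first. Phgdh, the first enzyme of serine synthesis, averaged 219 CPM in p53null and 25.1 CPM in p53WT AML at 10 h in the authors' deposited tables, a ratio of 8.73. Phgdh has processed pseudogenes that match up to 1608 bases of its transcript at over 95% identity, so its count is uncertain. Psat1, the next enzyme of the pathway, stood at 469 against 145 CPM (ratio 3.22) and Shmt2, which makes glycine from serine in mitochondria, at 413 against 139 CPM (2.97) in the same tables. Asns, asparagine synthetase, stood at 192 against 99.2 CPM, a ratio of 1.94.

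Among the regulators, the authors' deposited tables for p53null and p53WT AML at 10 h gave Chac1 22.8 against 3.72 CPM (ratio 6.11), Ddit3 41.1 against 9.98 CPM (4.12) and Atf4 445 against 233 CPM (1.91). Ddit3 exons overlap Mars, a gene on the other strand, and the library kit did not mark strand, so part of its reads may belong there. They also overlap Gm4189 on the other strand and another protein-coding entry named Ddit3 on the same strand. Exons of Shmt2 overlap Ndufa4l2 and those of Ppp1r15a overlap Tulp2, each on the other strand, so the same limit holds for these members. Ppp1r15a was the exception, with 21.6 against 26.0 CPM, inside the p53WT range of 4.34 to 101 CPM, though 4.70 times the mean of the CX libraries alone.

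In counts, 6 of 9 members were at least 1 log2 unit higher in the p53null than in the p53WT 10 h table, where 7.34% of shared genes were, and 0 were that much lower (7.07% of genes). Against the p53WT 72 h table it was 8 of 10 higher (6.83% of genes) and 0 lower (5.44%). The p53null mean exceeded every one of the 6 p53WT 10 h libraries for 8 of 9 members, as for 27.5% of shared genes. Since the erythroid sum was higher in the vehicle libraries, the p53null mean was also set against the CX libraries alone. There 7 of 9 members were at least 1 log2 unit higher, against 8.75% of genes. Between the p53WT tables, 72 h against 10 h, 0 of 9 members were 1 log2 unit higher (2.06% of genes) and 1 was lower (2.31%), namely Ppp1r15a.

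Other genes of the pathway lay in the same order in many cases. Of all genes shared with the p53WT 10 h table, 7.34% were at least 1 log2 unit higher in the p53null table and 7.07% lower. In the p53null table, at least 1 log2 unit above the p53WT 10 h table, were 5 of 10 amino acid transporter genes (2 lower), 5 of 13 amino acid and one-carbon enzyme genes (1 lower), 5 of 10 other ATF4 target genes (0 lower), 3 of 9 bZIP genes (2 lower) and 0 of 13 genes for eIF2alpha kinases and regulators (0 lower). In the authors' deposited tables the mitochondrial folate enzyme gene Mthfd2 stood at 256 in p53null and 56.5 CPM in p53WT AML at 10 h, the mitochondrial PEP carboxykinase gene Pck2 at 196 and 38.5 CPM, and the leucine transporter gene Slc7a5 at 396 and 104 CPM. Its partner chain gene Slc3a2 stood at 264 and 85.4 CPM, the bZIP factor gene Atf5 at 122 and 35.3 CPM and the secreted glycoprotein gene Stc2 at 18.8 and 1.43 CPM in the same tables. The other direction was seen for the glutamine synthetase gene Glul (13.4 and 73.3 CPM), Cebpd (33.2 and 120 CPM) and the transporter gene Slc43a1 (1.23 and 14.0 CPM). Atf3, a stress-induced bZIP gene, was listed in the p53null table alone, at 4.54 CPM in the authors' deposited table.

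Other markers moved between the same tables. Of 16 erythroid markers, 6 were in the p53null table and all 6 were at least 1 log2 unit lower than in p53WT AML at 10 h (median difference -5.01). Leukemia markers had a median difference of -0.79 with 5 of 11 at least 1 log2 unit lower, among them Elane (643 against 3965 CPM in the authors' deposited tables), Mpo (2157 against 7085 CPM) and Meis1 (34.9 against 130 CPM), and Hoxa9 stood at 156 against 135 CPM. Of 9 macrophage markers 5 were at least 1 log2 unit higher and 2 lower, and of 12 neutrophil markers 1 was higher. Their part in the level differences was not tested.

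The response to CX-5461 was read per library in p53WT AML at 10 h, where 0 of 9 members had an adjusted p under 0.05 in edgeR's quasi-likelihood fit. Over all genes of that fit 3.78% were higher and 4.32% lower. At an unadjusted p under 0.05, 3 members were higher and 2 lower, beside 14.7% and 16.7% of all genes. With other tools on the same counts, DESeq2 called 2 members higher and 2 lower (7.59% and 10.7% of genes), the edgeR exact test 1 and 1 (3.91% and 7.25%), and limma-voom 0 (5.71% of genes in either direction). The authors' deposited table, with FDR under 0.05, had 0 members higher and 2 lower, against 3.57% and 6.83% of its genes. Every CX library lay above every vehicle library for 2 members (19.9% of all genes) and below for 2 (19.1%), shares close to those of the whole table. The median log2 fold change of the 9 members was -0.09, against 0.00 for all genes.

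**Figure D2:**
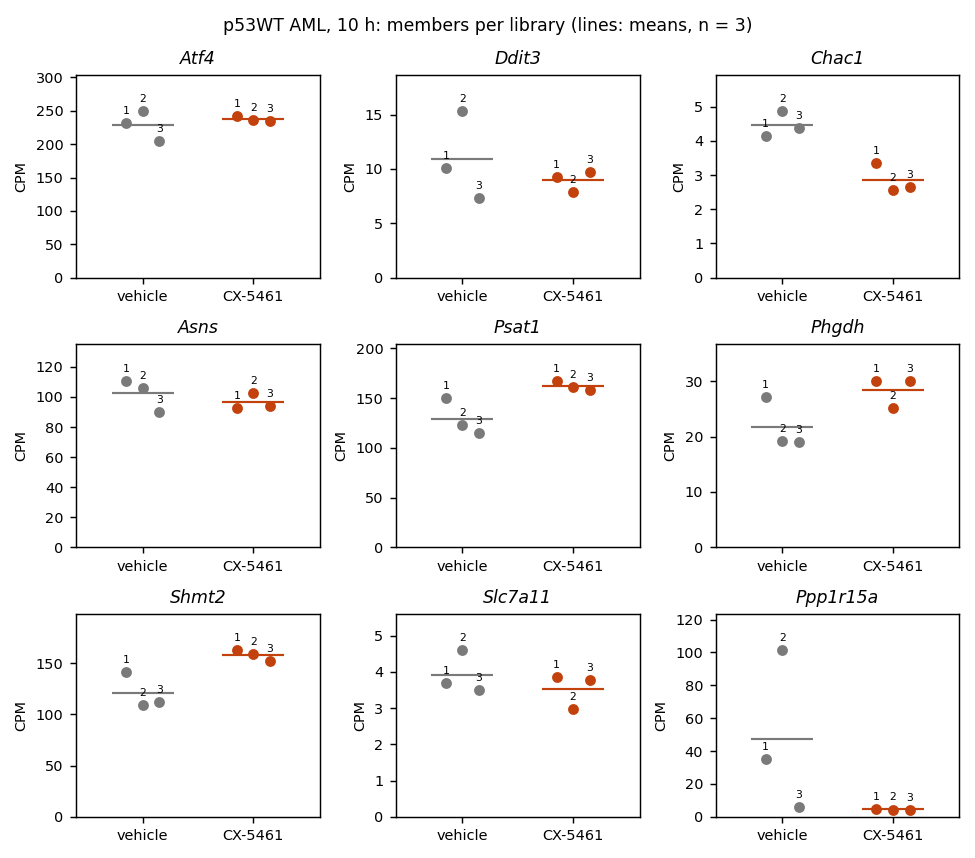
CPM of the 9 members measured in p53WT AML at 10 h, 1 point per library numbered as in the count table, with grey for vehicle, orange for CX-5461, lines for means of 3 libraries and axes that start at 0. Psat1 and Shmt2 have all CX points above the vehicle points, Chac1 and Ppp1r15a all below, and the other 5 overlap.

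Shmt2 had 141, 109 and 112 CPM in vehicle libraries 1 to 3 and 163, 159 and 152 CPM in CX libraries 1 to 3. The groups did not overlap. Its log2 fold change of 0.39 (SE 0.10) missed the threshold (quasi-likelihood adjusted p 0.0562, edgeR). The same reading held for Psat1, with 150, 123 and 115 CPM in vehicle and 168, 161 and 158 CPM with CX-5461, a log2 fold change of 0.33 (SE 0.0989) and an adjusted p of 0.0776 by edgeR. Phgdh had 27.2, 19.3 and 19.0 CPM in vehicle and 30.1, 25.1 and 30.1 CPM with CX-5461, and vehicle library 1 lay inside the CX range. Its log2 fold change was 0.38 (SE 0.156, edgeR adjusted p 0.153). Vehicle library 1 was the highest vehicle library for all 3 of these serine and glycine genes, and without it the 3 had edgeR adjusted p-values of 0.0138 (Shmt2), 0.0180 (Psat1) and 0.0307 (Phgdh), in a fit that called 817 genes higher and 861 lower over the whole table. Without any 1 of the other 5 libraries none of the 3 passed, with edgeR adjusted p-values of 0.0766 to 0.204 for Shmt2, 0.118 to 0.241 for Psat1 and 0.207 to 0.361 for Phgdh. Asns stood at 102 ± 10.8 CPM in vehicle and 96.5 ± 5.43 CPM with CX-5461 (SD, n = 3, edgeR adjusted p 0.524), less than the spread between vehicle libraries.

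Atf4 mRNA had no called change at 10 h, with 232, 249 and 205 CPM in vehicle and 242, 236 and 235 CPM with CX-5461. All CX libraries lay within the vehicle range, and the log2 fold change was 0.05 (SE 0.0734, edgeR adjusted p 0.645). With the erythroid markers' average log2 CPM as a covariate, the log2 fold change of Atf4 was 0.32 (SE 0.0823, edgeR adjusted p 0.371). That average was 6.34, 8.15 and 3.39 in vehicle libraries 1 to 3 and 1.27 to 1.88 in the CX libraries. Every vehicle library lay above every CX library, so fits with this covariate separate it poorly from treatment. Neither a lost nor a kept call in them tells the 2 apart. Ddit3, the pro-apoptotic factor downstream of ATF4, had 10.1, 15.3 and 7.34 CPM in vehicle and 9.23, 7.85 and 9.75 CPM with CX-5461, again all within the vehicle range. Its log2 fold change of -0.29 (SE 0.254) had an edgeR adjusted p of 0.469. Slc7a11, with the values given above, changed by -0.14 (SE 0.168, edgeR adjusted p 0.591) on the log2 scale.

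Chac1, whose product breaks down glutathione, was measured at 4.14, 4.86 and 4.39 CPM in vehicle and at 3.35, 2.57 and 2.64 CPM with CX-5461, from 56 to 199 counts a library. Every CX library lay below every vehicle library. The log2 fold change was -0.63 (SE 0.153), with an adjusted p of 0.0513 by edgeR quasi-likelihood, 0.0684 by edgeR's exact method, 0.0594 by limma-voom, 0.560 with the erythroid covariate and 0.0356 by DESeq2. Chac1 had an FDR of 0.0110 in the authors' deposited table.

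Ppp1r15a had the widest spread of the members. Its level was 34.9, 101 and 5.91 CPM in vehicle libraries 1, 2 and 3 and 4.85, 4.41 and 4.34 CPM in the CX libraries. Vehicle library 3 lay close to the CX libraries and vehicle library 2 far above them, an order that the erythroid sum (5777, 19808 and 639 CPM) and the neutrophil sum (10423, 19021 and 7022 CPM) shared. The log2 fold change was -3.38 (SE 0.898) with an edgeR adjusted p of 0.0594, against 0.117 with robust estimation, 0.00656 by DESeq2, 6.49e-06 by the edgeR exact test and an FDR of 8.31e-06 in the authors' deposited table. Without vehicle library 2 the log2 fold change was -2.19 (edgeR adjusted p 0.0724), and without vehicle library 3 it was -3.89 (0.00983). With the erythroid markers' average log2 CPM as a covariate it was 1.19, of the opposite sign, with an edgeR adjusted p of 0.356. In that fit 0 members and 0.15% of all genes were called, and Ddit3 went from -0.29 to 0.77. A positive log2 fold change was seen for 8 of 9 members and for 6547 of all 12679 genes. The limit given above for this covariate holds here too.

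**Figure D3:**
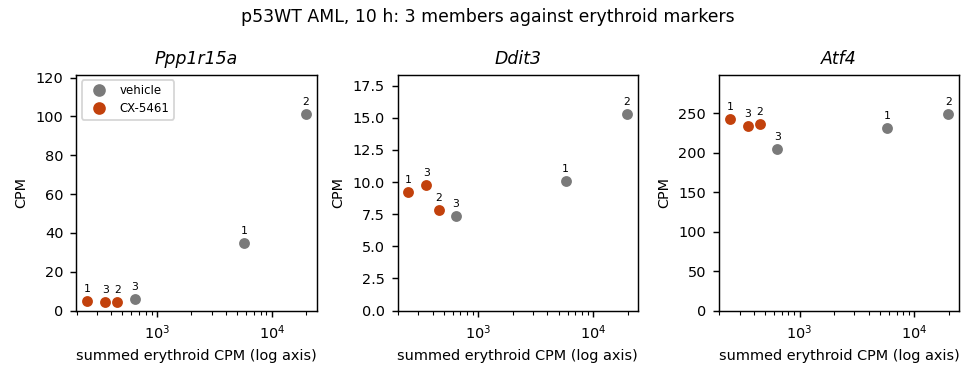
CPM of Ppp1r15a, Ddit3 and Atf4 against the summed CPM of 15 erythroid markers (log axis) in the 6 p53WT 10 h libraries, 1 point per library, grey for vehicle and orange for CX-5461. Ppp1r15a is at 34.9 and 101 CPM in the vehicle libraries with the highest erythroid sums and at 4.34 to 5.91 CPM in the other 4, while Atf4 stays between 205 and 249 CPM.

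Across the 6 libraries, the genes closest to Atf4 were not members. The 5 genes with the highest Pearson correlation with Atf4 in log2 CPM, among 10380 genes averaging 5 CPM or more, were Ccdc107, 2700062C07Rik, Cep76, Mrps35 and ENSMUSG00000091454 (r = 0.981 to 0.989). Ddit3 came at rank 702 (r = 0.707), Psat1 at 1641 and Asns at 1676, and Ppp1r15a, Phgdh and Shmt2 at 2252, 2448 and 2690. Chac1 and Slc7a11 were below that level and were not ranked. For Ppp1r15a, a gene chosen for this after its values were seen, the closest genes were 1110059E24Rik, Cd36, Slc43a1, Itsn1 and Tnk2 (r = 0.997 to 0.999), and Ddit3 had r = 0.844. These values describe 6 libraries that share the vehicle and CX groups.

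In p53null AML at 10 h, no member passed. The authors' deposited table had 0 of 10 members higher and 0 lower at an FDR under 0.05, in a table with 0.148% of genes higher and 0.0389% lower. At an unadjusted p under 0.05 it held 1 member, Chac1, which was lower (2.92% of genes were), with a log2 fold change of -0.34, a p of 0.0208 and an FDR of 0.667. In that authors' deposited table the log2 fold change was -0.10 for Atf4, -0.28 for Ddit3, -0.31 for Trib3, -0.32 for Slc7a11 and -0.27 for Ppp1r15a. The biosynthetic genes were nearer to 0 in the authors' deposited table, with 0.01 for Psat1 and Shmt2, -0.00 for Phgdh and -0.04 for Asns. Thus 8 of 10 values were below 0, where 50.8% of all genes were, and the members' median was -0.19 against -0.00 for all genes. No counts were at hand to show the spread between these libraries.

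After 72 h in p53WT AML, Atf4 and 3 of its targets were higher with CX-5461. In the authors' deposited table Atf4 had a log2 fold change of 0.61 (FDR 8.79e-07) at a mean of 268 CPM. Slc7a11 had 0.48 (FDR 0.0136), Ddit3 0.45 (FDR 0.00713) and Chac1 0.45 (FDR 0.0453) in the same authors' deposited table, at means of 3.51, 10.2 and 4.54 CPM. So 4 of 10 members were higher and 0 lower, in a table with 16.1% of genes higher and 15.1% lower. At an FDR under 0.01 it was 2 of 10, Atf4 and Ddit3. Ppp1r15a had the highest value, 0.75, but an FDR of 0.243 in the authors' deposited table.

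The biosynthetic genes did not pass at 72 h. The authors' deposited table gave log2 fold changes of 0.13 (FDR 0.392) for Phgdh, 0.11 (FDR 0.320) for Psat1, -0.09 (FDR 0.436) for Asns and -0.15 (FDR 0.209) for Shmt2. Trib3, at 1.28 CPM, had -0.30 (FDR 0.395) in the authors' deposited table. The median of the 10 members was 0.29 against -0.01 for all genes. Markers of other cells rose in the same comparison: 12 of 12 neutrophil markers (median 1.16), 8 of 10 macrophage markers (median 2.81) and 9 of 15 erythroid markers (median 1.18) were higher at an FDR under 0.05, with 0 lower. Megakaryocyte markers (3 of 3 measured), B and plasma cell markers (2 of 4) and the single T and NK cell marker measured were higher too, and 0 of 3 stroma markers. These are counts of genes, since no sums per library could be made at 72 h. The 4 globin genes, the highest of the erythroid list, did not rise in the authors' deposited table. They had -0.11 (Hba-a1), -0.09 (Hba-a2), -0.23 (Hbb-bs) and -0.10 (Hbb-bt), with FDR of 0.749 to 0.905. Of 11 leukemia markers 2 were higher and 5 lower. Their part in the rise of Atf4, Slc7a11, Ddit3 and Chac1 was not tested.

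**Figure D4:**
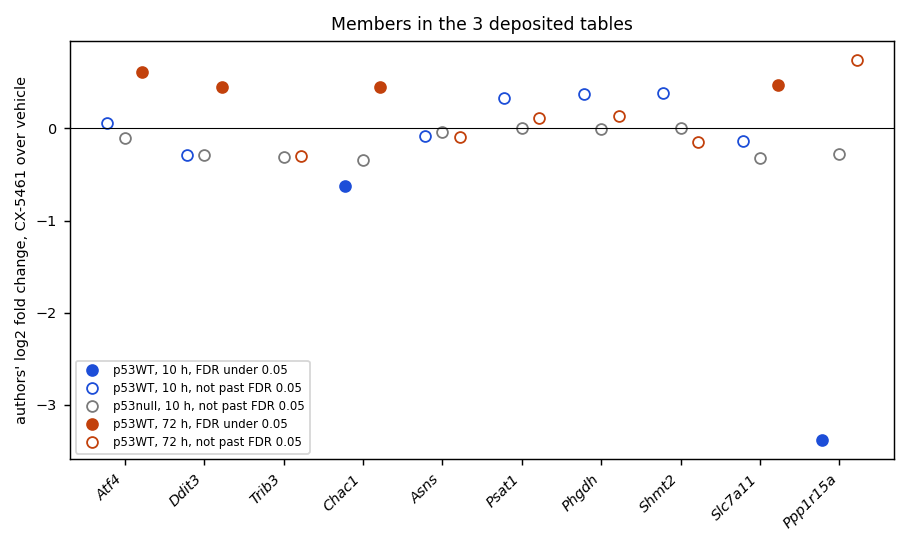
The authors' log2 fold change, CX-5461 over vehicle, for each member in the 3 deposited tables (blue, p53WT at 10 h; grey, p53null at 10 h; orange, p53WT at 72 h), filled where the FDR is under 0.05. Chac1 and Ppp1r15a are filled below 0 at 10 h in p53WT, Atf4, Ddit3, Chac1 and Slc7a11 are filled above 0 at 72 h, and no p53null point is filled.

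Side by side in the authors' deposited tables, Chac1 had -0.62 in p53WT AML at 10 h, -0.34 in p53null AML at 10 h and 0.45 in p53WT AML at 72 h, and Ppp1r15a had -3.38, -0.27 and 0.75. Atf4 had 0.05, -0.10 and 0.61, and Shmt2 had 0.39, 0.01 and -0.15. Whether the fold changes differ between genotypes or times was not tested, because 2 of the 3 tables hold no counts.

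Genes around the members were read from 5 lists, to be set beside shares of all genes. At 10 h in p53WT AML, edgeR quasi-likelihood called 3.78% of all genes higher and 4.32% lower. At an unadjusted p under 0.05 it was 14.7% and 16.7%. DESeq2 called 7.59% and 10.7%, edgeR's exact method 3.91% and 7.25%, and limma-voom 5.71% in either direction. At 72 h the authors' deposited table had 16.1% of genes higher and 15.1% lower. The list of eIF2alpha kinases and regulators also holds Eif2s1, the gene of eIF2alpha itself, Ppp1r15b, Impact and the eIF2B genes. It had 0 of 13 genes past the edgeR quasi-likelihood test in p53WT AML at 10 h, with a median of 0.17 on the log2 scale. At an unadjusted p under 0.05 in that test, 5 were higher and 1 lower. DESeq2 called 2 and 1, edgeR's exact method 1 and 1 and limma-voom 0. The amino acid sensing kinase gene Eif2ak4 (GCN2) had 42.6 ± 3.50 CPM in vehicle and 47.9 ± 2.28 CPM with CX-5461 (SD, n = 3, edgeR adjusted p 0.172). At 72 h 1 of 13 was lower in the authors' deposited table, the interferon-induced kinase gene Eif2ak2 (PKR), at -0.43. The bZIP list had 0 of 9 past the edgeR quasi-likelihood test at 10 h (0 higher and 2 lower at an unadjusted p under 0.05, 0 and 1 by DESeq2 and by edgeR's exact method, 0 by limma-voom; median -0.08). At 72 h 3 of 8 were higher and 0 lower in the authors' deposited table, namely Atf5 (0.54), the AP-1 repressor gene Jdp2 (0.33) and Cebpd (0.31).

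Uptake genes were read next in p53WT AML at 10 h. Of 10 amino acid transporter genes 3 rose and 1 fell in the edgeR quasi-likelihood test (median 0.28), beside 3.78% and 4.32% of all genes. DESeq2 called 5 higher and 2 lower, edgeR's exact method 4 and 2, limma-voom 2 and 0, and the fit with the erythroid covariate 0 and 0. Slc7a1, the arginine and lysine transporter gene, went from 109 ± 9.77 to 145 ± 6.12 CPM, the glutamine transporter gene Slc1a5 from 182 ± 3.92 to 226 ± 14.0 CPM and Slc7a6 from 36.1 ± 5.25 to 49.6 ± 0.463 CPM (SD, n = 3). Their edgeR adjusted p-values were 0.0344, 0.0345 and 0.0454. Slc7a5 had a log2 fold change of 0.42 that did not pass (edgeR adjusted p 0.0648), and its partner Slc3a2 -0.04 (edgeR adjusted p 0.794). The glycine transporter gene Slc6a9 fell, from 4.0, 13.5 and 1.12 CPM in the vehicle libraries to 0.230 to 0.298 CPM, with the same order of vehicle libraries as the erythroid sum. Slc6a9 had an edgeR adjusted p of 0.0430, and its log2 fold change went from -4.47 to -0.36 with the erythroid covariate.

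The next 2 lists stand beside the same 3.78% of all genes higher and 4.32% lower by edgeR quasi-likelihood, with the shares by other tools as above. Of 13 amino acid and one-carbon enzyme genes, 1 rose and 1 fell at 10 h (median -0.02), against 4 and 2 by DESeq2, 3 and 2 by edgeR's exact method, 1 and 1 by limma-voom and 0 and 0 with the erythroid covariate. The gene that fell was Glul, which makes glutamine from glutamate and went from 82.8 ± 8.34 to 64.2 ± 0.411 CPM (SD, n = 3, edgeR adjusted p 0.0401). With the erythroid covariate the log2 fold change of Glul went from -0.37 to -0.10 and was not called (edgeR adjusted p 0.690). Mthfd2 (-0.22) and Psph, the last enzyme of serine synthesis (-0.02), did not pass, with edgeR adjusted p-values of 0.192 and 0.854. Among 10 other ATF4 targets 2 rose and 0 fell (median 0.09; 2 and 2 by DESeq2, 3 and 2 by edgeR's exact method, 2 and 0 by limma-voom): Sesn2, an inhibitor of mTORC1 that is also a p53 target, from 12.3 ± 3.35 to 41.9 ± 2.33 CPM and Ddit4 (REDD1), another inhibitor of mTORC1, from 5.43 ± 1.10 to 13.4 ± 0.589 CPM (SD, n = 3). Their edgeR adjusted p-values were 0.0113 and 0.0160. In the fit with the erythroid covariate, which largely followed treatment, they were 0.00509 for Sesn2 and 0.0494 for Ddit4 (edgeR). Without CX library 1, 2 or 3, 0 genes of the 5 lists were called by edgeR, against 6 higher and 2 lower with all libraries, while 23 to 24 genes of the whole table were called higher and 0 to 1 lower.

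**Figure D5:**
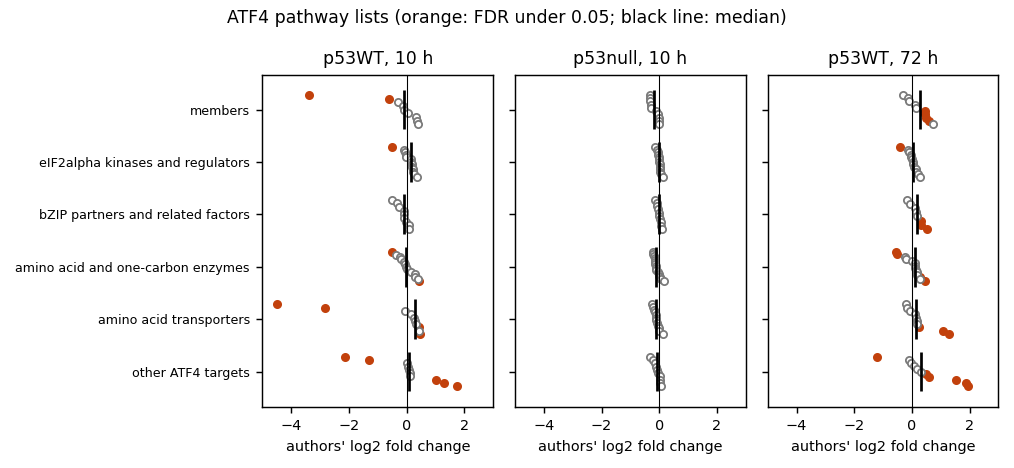
The authors' log2 fold changes, CX-5461 over vehicle, of the members and the 5 pathway lists in the 3 deposited tables, 1 point per gene, orange where the FDR is under 0.05, with a black line at each list's median. Orange points lie on both sides of 0 in p53WT AML at both times, whereas the p53null panel has no orange point.

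In p53null AML the authors' deposited table had 0 genes of the 5 lists past an FDR of 0.05 in either direction, with Sesn2 at -0.22 and Ddit4 at -0.13. At 72 h in p53WT AML the authors' deposited table had 3 of 10 transporter genes higher and 0 lower, Slc38a2 (0.25), Slc6a9 (1.29) and Slc43a1 (1.09), where 16.1% of all genes were higher and 15.1% lower. Of 14 enzyme genes 2 were higher, Glul (0.47) and the aspartate aminotransferase gene Got1 (0.29), and 2 lower, Gpt2 (-0.55) and Pck2 (-0.52), in the authors' deposited table. Of 11 other ATF4 targets 5 were higher and 1 lower in the authors' deposited table, among them Gdf15 (1.87), a stress cytokine gene that p53 also induces, Sesn2 (1.53) and Herpud1 (0.49), and Stc2 (-1.23). Medians at 72 h were 0.16 for transporters, 0.11 for enzymes, 0.31 for other ATF4 targets and 0.02 for the kinase list, against -0.01 for all genes.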

How the data were processed

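RNA sequencing of sorted AML cells was deposited as 3 tables. The submitters' processing notes name the mm9 build, Bowtie, HTSeq, edgeR and CASAVA 1.8.2; their settings are not given in the sources used here. The authors' tables hold, per the file headers, log2 fold changes, log2 mean CPM, p-values and FDR, and 1 table also raw counts of 6 libraries. Count columns are numbered 1 to 3 and titles 3 to 5, so each column was tied to its group only. All 12679 genes with counts exceeded 1 CPM in at least 3 libraries.

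Counts were normalized by TMM and tested across all genes with the quasi-likelihood test of edgeR 4.0.16 (R 4.3.3), treatment as the only term, two-sided, Benjamini-Hochberg adjustment over all genes, threshold 0.05; the SE is the absolute log2 fold change over the square root of F. CPM values use the TMM library sizes, log2 CPM a prior count of 2. The authors' fold change had r = 1.00 across genes with the CX over vehicle ratio of the counts, so positive means higher with CX-5461; the other 2 tables were taken the same way. Planned count fits of those tables were not run, since they hold no counts. Symbols came from a gene name table (12237, 12366 and 12362 IDs matched) and RefSeq synonyms. Similar transcripts and overlapping exons were read from GENCODE M21. The edgeR fit was tested on simulated data. Alternatives were RLE, library size alone, a filter of 5 CPM in 3 libraries, DESeq2 1.42.0, limma 3.58.1 (voom), the exact test, robust estimation, an erythroid covariate, each library left out, and FDR thresholds of 0.01 and 0.1.

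Members, lists and tests were chosen with earlier results of these data known; the level comparison between tables was added after the data were seen. Named list genes were those past the threshold in a table, at most 4 by p per list and table, plus Atf3, Sesn2, Psph, Mthfd2, Slc3a2, Slc7a5 and Eif2ak4; 1 gene that this rule names is not reported here. The depth behind the tables without counts is unknown.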

Additional observations from a re-analysis of the deposited data

How the results depend on the processing

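No paired analysis was possible because the count columns carry no replicate number that the labels share, and the other tables hold no counts. Over all genes of p53WT AML at 10 h (479 higher and 548 lower), DESeq2 called 962 and 1352, limma-voom 330 lower, the edgeR exact test 919 lower and the erythroid covariate fit 19 and 0. For members (0 and 0), DESeq2 called 2 and 2, and the exact test 1 and 1. For the 5 lists together (6 and 2), DESeq2 called 13 and 8, the exact test 11 and 8, the erythroid covariate fit 2 and 0, and 1 lower was called with the 5 CPM filter, limma-voom or robust estimation. Leaving out 1 library gave 0 to 3 higher and 0 to 1 lower for members, and 0 to 10 and 0 to 7 for the lists. Over all genes it gave 474 to 817 higher and 665 to 861 lower without a vehicle library. Without a CX library it gave 23 to 24 higher and 0 to 1 lower. Each of these fits lacked 1 library, and the cause of the difference was not tested. At an FDR under 0.01, 2 members were higher at 72 h.

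Some log2 fold changes at 10 h changed sign, and no value of the changed sign passed the threshold. With the erythroid covariate they were Ddit3 (0.77), Asns (0.14), Slc7a11 (0.25), Ppp1r15a (1.19), Eif2ak2 (-0.010), Pck2 (0.099), Got1 (0.077), Slc43a1 (1.17), Psph (0.055), Mthfd2 (0.086), Slc3a2 (0.30) and Eif2ak4 (-0.034). With library size alone they were Psph (0.018) and Slc3a2 (0.0024). The erythroid covariate was higher in every vehicle library than in every CX library, so its fit separates it poorly from treatment. Leaving out 1 library gave -0.018 to 0.12 for Atf4, -0.50 to 0.023 for Ddit3, -0.19 to 0.032 for Gpt2, -0.058 to 0.15 for Herpud1, -0.062 to 0.0083 for Psph and -0.13 to 0.061 for Slc3a2. The count of 6 members at least 1 log2 unit higher in the p53null table was 6 to 8 with the other references and with centring on the median. Chac1 and Slc7a11, at 56 to 199 counts a library, carry the most counting error of the members.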

Other observations

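A few genes of the pathway lists had opposite signs at the 2 times in p53WT AML. In the authors' deposited tables Stc2 had a log2 fold change of 1.0 (FDR 0.00310) at 10 h and -1.23 (FDR 5.16e-05) at 72 h, at means of 1.43 and 1.13 CPM. Trib1, a pseudokinase gene related to Trib3, had -2.12 (FDR 3.71e-06) at 10 h and 1.96 (FDR 7.66e-05) at 72 h in the authors' deposited tables, and Slc43a1 had -2.82 and 1.09. The edgeR quasi-likelihood fit of the 10 h counts called none of these 3 genes, with adjusted p-values of 0.109 for Stc2, 0.0522 for Trib1 and 0.0683 for Slc43a1. In the count table Trib1 had 5.29, 11.2 and 2.55 CPM without and 1.85, 1.33 and 1.15 CPM with CX-5461, with vehicle library 2 the highest, as for Ppp1r15a and the erythroid sum. Pck2 kept its sign, at -0.52 in the authors' deposited tables for both times. The edgeR quasi-likelihood fit at 10 h did not call Pck2 either (adjusted p 0.0883), and its sign changed with the erythroid covariate. Its vehicle libraries 1 to 3, at 42.0, 57.4 and 37.0 CPM, had the order of the erythroid sum. These genes were chosen after their values were seen, the difference between the times was not tested, and vehicle libraries at 10 h and markers of other cells at 72 h differed as given above.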
